A study of Zea mays with 9 samples.

Results

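The proliferating cell nuclear antigen gene (PCNA, Zm00001d018415) and a fasciata 1-like gene (here FAS1-like, Zm00001d012166) were lower in maize root apexes after ammonium than after nitrate or without nitrogen. These 2 genes, of 45260 identifiers in the deposited table, were taken by identifier because the study lists them as examples of cell proliferation genes that were down-regulated by ammonium. They were thus picked from the same libraries and for this direction. The study lists them as responding to ammonium specifically, from a grouping that used the values of all 3 groups. The outcome of the nitrate comparisons was therefore also tied to this choice. The levels of both genes are given as a description, without a test. Seedlings of the inbred line B73 were germinated for 3 days, and all 3 groups were then kept for 24 h in a nitrogen-deprived solution. They next grew for 24 h with 1 mM ammonium (NH4Cl), with 1 mM nitrate (KNO3) or in the nitrogen-deprived control solution (-N). RNA of primary root apexes was sequenced as 9 libraries, with 3 biological replicates of pooled seedlings for each condition.

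PCNA is the ring-shaped sliding clamp that holds DNA polymerases on the template during replication. It is made mostly by cells that replicate their DNA, and its RNA is a common marker of proliferating cells in plant meristems. In Arabidopsis, FASCIATA1 is the large subunit of chromatin assembly factor 1 (CAF-1), which places new histones on freshly copied DNA and is brought to the replication fork by PCNA. Arabidopsis plants that lack it have disorganised shoot and root meristems. In a root tip, cells divide in the meristem behind the root cap, then stop dividing, elongate and differentiate farther from the tip, so that an apex sample holds cells of all these kinds.

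The values are RPKM, an estimate of reads per kilobase of gene that corrects for gene length and library size. The authors scaled the libraries to each other by quartile normalization. The table holds a single pooled value for each gene and condition. From this table a difference can therefore not be set against the spread between replicates, no test could be run, and the number of reads behind a single value is not known. The study itself tested the replicates of each nitrogen source against -N, but reports no test of ammonium against nitrate. Both genes are on its list of genes past its fold threshold and false discovery rate in at least 1 of these tests. Their nitrate ratios did not reach that fold threshold, so the listing concerns ammonium against -N. The false discovery rate was not recomputed here. A gene was called lower or higher when its log2 ratio between 2 conditions lay beyond 0.58, which is the fold threshold of the study alone. The background of a comparison was made of every gene that reached 1 RPKM in either of its conditions.

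PCNA had 39.1 RPKM after ammonium, 73.0 RPKM after nitrate and 78.3 RPKM in -N. The ammonium value stood apart from the other two, which lay close together. Against -N, the level after ammonium was 49.9% and the level after nitrate was 93.1%. PCNA RNA was abundant in each condition. It was higher than 79.3% of the genes that reached 1 RPKM after ammonium, than 89.7% after nitrate and than 90.1% in -N. The rank from the top, which does not depend on how the conditions are scaled to each other, was 4314 after ammonium, 2155 after nitrate and 2019 in -N.

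FAS1-like was expressed at a much lower level, with 3.52 RPKM after ammonium, 6.89 RPKM after nitrate and 8.13 RPKM in -N. The order of the conditions was that of PCNA, with the lowest value after ammonium, which was 43.3% of the -N value. After nitrate the level was 84.8% of that in -N. FAS1-like RNA was below the middle of the expressed genes throughout, being higher than 19.7% of them after ammonium, 34.2% after nitrate and 38.3% in -N. On the RPKM scale, the level of PCNA was 11.1 times that of FAS1-like after ammonium, 10.6 times after nitrate and 9.64 times in -N. The proportion between the genes thus varied less over the conditions than the level of either.

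**Figure D1:**
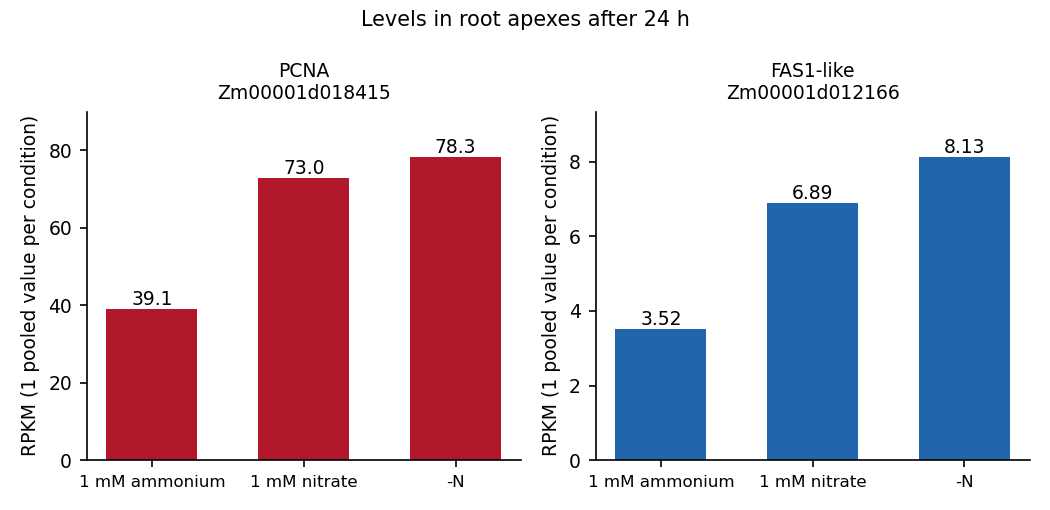
Levels of PCNA (left) and FAS1-like (right) in RPKM after ammonium, after nitrate and in -N, with 1 bar for the authors' pooled value of each condition, so that there are no error bars. The ammonium bars, 39.1 and 3.52 RPKM, are the lowest of each panel, and the nitrate bars, 73.0 and 6.89 RPKM, lie just under the -N bars.

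The first comparison asked how supply of ammonium changed the apex relative to nitrogen deprivation. The log2 ratio of ammonium to -N was -1.00 for PCNA and -1.21 for FAS1-like, and both genes were called lower. Of the 21373 genes compared, 11.3% were called lower and 19.6% higher. Because the study chose both genes for this contrast, nothing is read from their count of 2. As a description, 2.76% of the genes compared had a ratio as low as that of PCNA, and 1.56% one as low as that of FAS1-like. A ratio beyond -1, which PCNA (-1.003) barely passed, was found for 2.77% of the genes. The lowest 5% of all ratios lay under -0.81, and the median was 0.02. Among genes that reached 5 RPKM in either condition, 1.90% were as low as PCNA and 0.986% as low as FAS1-like.

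With no replicate values, the distance to the threshold shows how much a value could shift before a call changed. PCNA would no longer have been called lower at an -N value of 58.4 RPKM or less, or at an ammonium value of 52.4 RPKM or more. For FAS1-like these limits were 5.26 RPKM in -N and 5.44 RPKM after ammonium. The margin was thus 1.34-fold for PCNA and 1.55-fold for FAS1-like. Whether the replicates of a condition varied by less than that was not tested.

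The second comparison asked the same of nitrate. The log2 ratio of nitrate to -N was -0.10 for PCNA and -0.24 for FAS1-like, and neither gene was called. In this comparison 5.46% of 21290 genes were called lower and 11.9% higher. Both ratios were under the median of 0.04 and above the lowest 5% of the genes (-0.60). As a description, 30.5% had a ratio as low as that of PCNA and 17.3% one as low as that of FAS1-like, while 2.54% lay beyond -1. The absence of a call does not show that nitrate left these RNAs unchanged, since both values were under the -N value and their error is not known. Nothing is read from it, because the grouping from which the study took these genes also used the nitrate values.

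Ammonium and nitrate were also compared directly, which makes no use of the -N value. The log2 ratio of ammonium to nitrate was -0.90 for PCNA and -0.97 for FAS1-like. Both genes were called lower after ammonium, as were 14.1% of the 21660 genes compared, while 15.5% were called higher. Ratios as low as that of PCNA were found for 5.56% of the genes, and ratios as low as that of FAS1-like for 4.58%. The lowest 5% lay under -0.91, so that PCNA was just outside them and FAS1-like just inside. This comparison shares its ammonium values with the first and its nitrate values with the second, and it is not a separate observation of the difference. Both genes were chosen from a grouping that used these values, so nothing is read from the calls. The study reports no test of ammonium against nitrate. Neither gene lay beyond -1, as 4.24% of the genes did. A 1.25-fold shift for PCNA and a 1.31-fold shift for FAS1-like would have ended the calls.

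**Figure D2:**
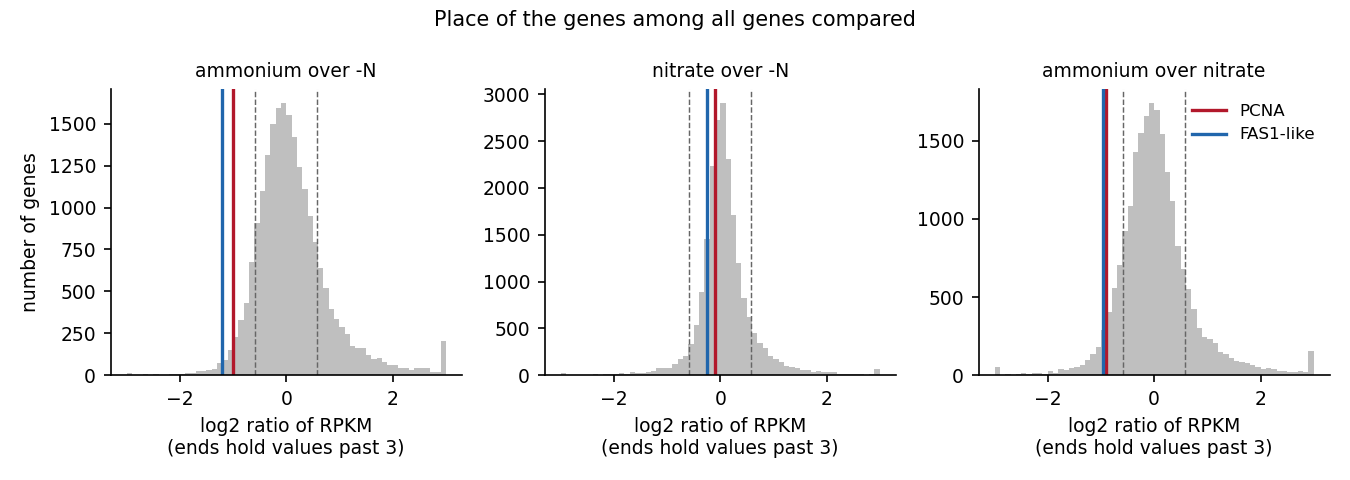
Histograms of the log2 ratio of RPKM over all genes above 0 in both conditions compared, for ammonium over -N, nitrate over -N and ammonium over nitrate, with the number of genes on the vertical axis, the thresholds at 0.58 in either direction as dashed lines, and PCNA (red) and FAS1-like (blue) as vertical lines. The lines stand in the left tail in both ammonium comparisons (-1.00 and -1.21, then -0.90 and -0.97) and between the lower threshold and 0 for nitrate over -N (-0.10 and -0.24).

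FAS1-like had the lower ratio of the pair in all 3 comparisons, with a difference from PCNA of -0.21 on the log2 scale for ammonium over -N, of -0.14 for nitrate over -N and of -0.07 for ammonium over nitrate. These gaps are small beside the ammonium ratios themselves, and with 1 value per condition it cannot be said whether they exceed the replicate error. In the plane of the 2 ratios to -N, the genes lay 0.25 log2 units apart. Many other genes lay nearer. Of 21280 candidate genes, FAS1-like was the 442nd nearest to PCNA, and PCNA was the 153rd nearest to FAS1-like. These ranks lie within the nearest 2.08% and 0.719% of the candidates. Both genes were chosen from the same group of the study, so nothing is read from their nearness. Zm00001d054008 was nearest to PCNA, at 0.02 log2 units, with 7.57 RPKM after ammonium, 13.9 RPKM after nitrate and 15.1 RPKM in -N. Next came Zm00001d006333, at 0.03 log2 units. The genes nearest to FAS1-like were Zm00001d047005 and Zm00001d003949, at 0.02 and 0.03 log2 units. Zm00001d047005 had 1.26 RPKM after ammonium, 2.51 RPKM after nitrate and 2.94 RPKM in -N. The sources used here give no description for these 4 genes, and likeness over 3 values says nothing of their function.

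**Figure D3:**
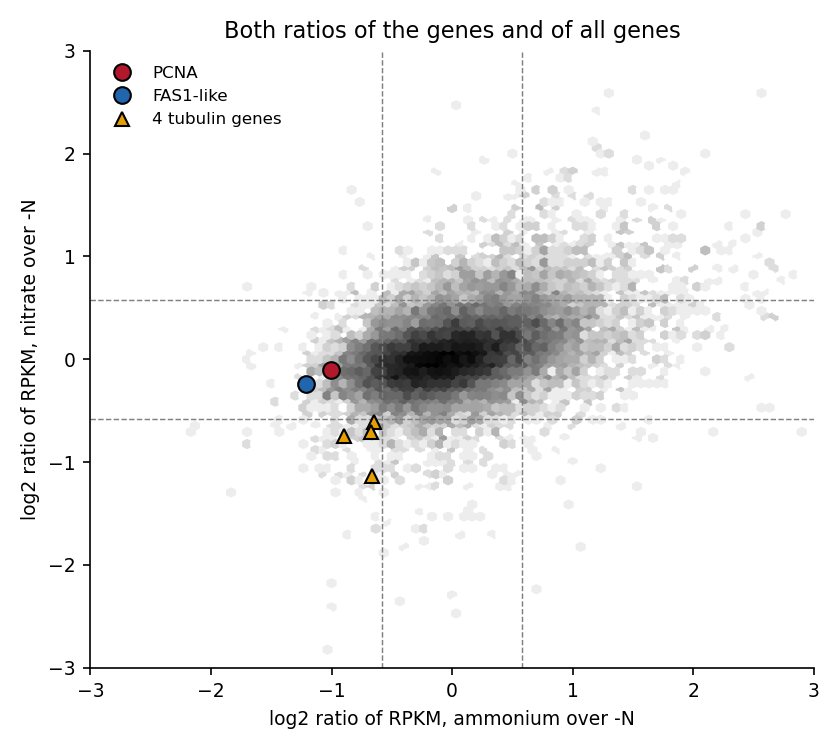
Log2 ratio of RPKM of nitrate over -N (vertical) against that of ammonium over -N (horizontal). All genes above 0 in the 3 conditions, with at least 1 RPKM in one, are grey. The grey is darker where more genes fall, and genes past 3 are not drawn. PCNA, FAS1-like and 4 tubulin genes are large symbols, and dashed lines mark the thresholds at 0.58. PCNA and FAS1-like lie to the left of the ammonium threshold and between the nitrate thresholds, and the tubulin genes lie past both lower thresholds.

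The study grouped its differentially expressed genes by profile, and both genes fell in cluster 6, that of the genes down-regulated by ammonium. The copy of the list used here is shortened and holds 61 of its genes, all called lower after ammonium because that is how they were selected. Their median log2 ratio of ammonium to -N was -1.15, over the 58 genes with a ratio. The other 3 were listed at 0 after ammonium. FAS1-like was close to this median, as the 18th lowest of the 58 genes, whereas PCNA was the 50th lowest, near the upper end of the range from -2.48 to -0.95. For nitrate over -N the median of the 61 genes was -0.25, with FAS1-like as the 33rd lowest and PCNA as the 44th. Of the 61 genes 6 were called lower, and of all genes compared 5.46%. The study's grouping also used the nitrate values, so nothing is read from this count. PCNA was also the more abundant of the pair within the cluster. It was the 11th most abundant of the 61 genes after ammonium, against 12th in -N, and FAS1-like the 49th, against 53rd. The median level of the cluster was 11.9 RPKM after ammonium, against 25.2 RPKM in -N.

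Alpha and beta tubulins, the subunits of microtubules, form the spindle of dividing cells and also guide wall deposition in elongating ones. The study lists 4 tubulin genes as down-regulated by both nitrogen sources, again from these libraries. All 4 were called lower for ammonium over -N (median log2 ratio -0.67) and for nitrate over -N (median -0.73), and none for ammonium over nitrate, where they ranged from -0.15 to 0.47. Over all genes, 11.3%, 5.46% and 14.1% were called lower in these comparisons, with medians of 0.02, 0.04 and -0.03. PCNA and FAS1-like, by contrast, were not called for nitrate over -N and were called lower for ammonium over nitrate. The alpha tubulin gene Zm00001d006651, for example, had 148 RPKM after ammonium, 165 RPKM after nitrate and 276 RPKM in -N. The alpha tubulin gene Zm00001d021891 was more abundant, with 404 RPKM after ammonium, 392 RPKM after nitrate and 642 RPKM in -N. Zm00001d040509, described as beta tubulin5, had its lowest value after nitrate, with 230 RPKM after ammonium, 166 RPKM after nitrate and 365 RPKM in -N. The differences between these profiles were not tested, and both sets were chosen for them.

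**Figure D4:**
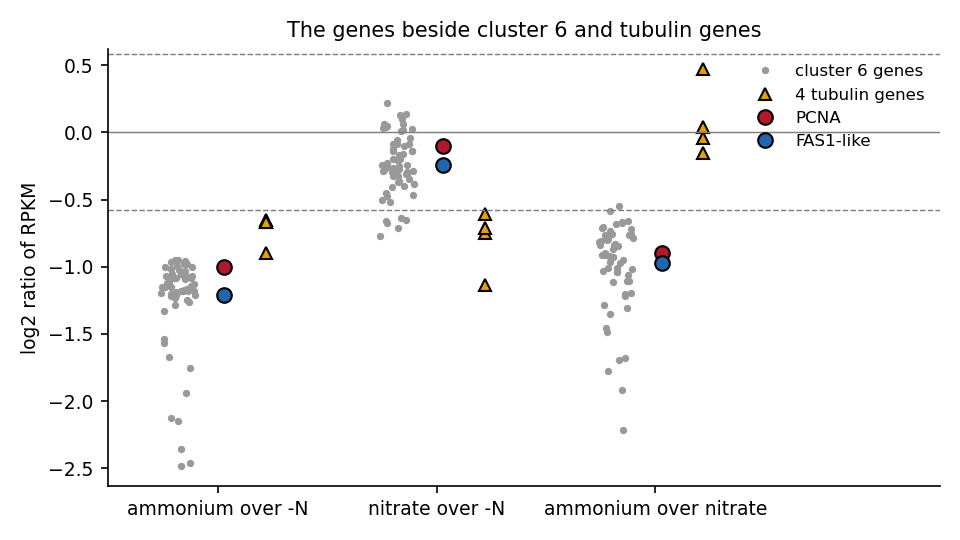
Log2 ratios of RPKM (vertical) for ammonium over -N, nitrate over -N and ammonium over nitrate, with the genes of cluster 6 that have a ratio as grey points (PCNA and FAS1-like among them), PCNA and FAS1-like as circles, 4 tubulin genes as triangles and the thresholds at 0.58 as dashed lines. The tubulin genes lie above the circles in both ammonium comparisons and below them for nitrate over -N, with tubulin ratios from -0.15 to 0.47 and circles at -0.90 and -0.97 for ammonium over nitrate.

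Some limits apply to both genes. In a bulk sample of whole apexes, fewer proliferating cells and less of these RNAs per cell cannot be told apart. Maize has more than one PCNA gene, and RefSeq names 2 of them, pcna1 and pcna2. Neither is paired with a Zm00001d identifier in the sources used here, so that the copy measured by Zm00001d018415 is left unnamed. In the authors' processing, reads with several mapping positions were divided between similar genes, which makes the level of a single PCNA copy less certain. FAS1-like is named by the study's description alone, and whether it encodes a CAF-1 subunit was not checked. Other replication genes (the MCM helicase, replication factor C, DNA polymerases), genes named as CAF-1 subunits, histones, cyclins and expansins were not analysed here. Nor were markers of the root meristem or of green tissue. This was because none of the 43484 Zm00001d identifiers could be paired with a name through RefSeq. The label of the tissue was for this reason not checked against its markers, and whether other genes of replication were lower as well was not tested.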

How the data were processed

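Poly(A) RNA libraries were prepared from root apexes with the TruSeq kit. The record of the series gives 10 to 15 seedlings per replicate, and the methods of the study a higher number. The authors trimmed reads with Trimmomatic 0.33, mapped them with TopHat2 2.0.13 to B73 RefGen_v4, removed alignments of the lowest mapping quality, and ran Cuffdiff of Cufflinks 2.2.1 with correction for multi-mapped reads and quartile normalization. The deposited values are RPKM, as 1 estimate by the authors per gene and condition.

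Log2 ratios were computed without a pseudocount. A gene listed at 0 in one condition counted as called in its direction but has no ratio. No replicate values were used here, so there are no tests, standard deviations or p-values. RPKM keep no read counts, so the reads behind a value are not known. The planned lists of replication, chromatin, cell cycle and marker genes, and the promoter motifs (E2F and site II elements), could not be looked up, since the RefSeq gene table (assembly Zm-B73-REFERENCE-NAM-5.0) did not pair the identifiers and sequences were not analysed here. Only the tubulin list remained, by the descriptions in the study's supplement. The members and lists were chosen with earlier results of these data known. Named genes are the members, the tubulins of largest mean RPKM and, for each member, the 2 genes nearest to it by Euclidean distance between the log2 ratios of ammonium and nitrate to -N, among Zm00001d genes above 0 in all 3 conditions with at least 1 RPKM in one. Alternatives were a pseudocount of 0.1 or 1, 3 other scalings, a threshold of 1, no filter and a minimum of 5 RPKM. The counting was tested on simulated data with planted changes well past the threshold and little noise. That checks the code and says nothing of the error of the real values. Python 3.11.15, numpy 2.4.6, pandas 2.3.3 and matplotlib 3.10.9 were used.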

Additional observations from a re-analysis of the deposited data

How the results depend on the processing

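Over 36 alternatives for the log2 ratios of the genes, none changed sign and 34 left the call as it was. The exceptions were the ratios of ammonium to nitrate, which at -0.90 for PCNA and -0.97 for FAS1-like did not reach a threshold of 1. Many of these outcomes were fixed in advance. A pseudocount or a stricter threshold cannot change a sign, and a stricter threshold cannot call an uncalled ratio. The scalings shifted the ratios by at most 0.08. For ammonium over -N both genes passed that threshold, PCNA by the narrowest margin (-1.00), and with a pseudocount of 1 its ratio was -0.99 and that of FAS1-like -1.02. Under the 3 other scalings (equal median, equal total, equal upper quartile) the ammonium to -N ratio reached -1.08 for PCNA and -1.29 for FAS1-like. The background counts moved more, and the filters also change how many genes are compared. At a threshold of 1, 591 genes were lower for ammonium over -N, 541 for nitrate over -N and 919 for ammonium over nitrate, in place of 2420, 1163 and 3056. Without a filter the numbers were 5432, 3931 and 6847. These also count genes under 1 RPKM in both conditions, and their share of the genes then compared is not given here. With a minimum of 5 RPKM, 1619 of 15925 genes were lower for ammonium over -N. For nitrate over -N it was 633 of 15678, and for ammonium over nitrate 1799 of 16097. No paired analysis was possible because the table holds 1 value per condition and none per replicate, and leaving out a replicate could not be run for the same reason. The number of reads behind the low values of FAS1-like is not known from RPKM.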
